A study of Mus musculus with 14 samples.

Results

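The comparison set CAST/Ei against C57BL/6 mice in uninjured (naive) dorsal root ganglia (DRG), the clusters of sensory neuron cell bodies beside the spinal cord. Its members are the 3 CAST/Ei and 5 C57BL/6 libraries whose titles name that strain and the naive state, 8 of the 14 libraries of the series. The other 6 libraries come from ganglia after crush of the left sciatic nerve, 3 of each strain, and are used here only as a second set of samples for the same strain contrast. C57BL/6 is the common laboratory strain, and CAST/Ei is a wild-derived inbred strain of the subspecies castaneus, whose genome differs at many more positions from C57BL/6 than most laboratory strains do. No transgene, drug or other allele is recorded for any group. The naive animals received no treatment, and their age and sex are not recorded, whereas the injured animals were adult males of 8 to 10 weeks with a crush of 30 s. In all groups the ganglia were dissociated, RNA was taken with the miRVana kit and libraries were made with the Ion Total RNA-Seq kit. Libraries of a sample type are biological replicates by the design text, but nothing states how many animals each holds, so p-values measure the spread between libraries.

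A microRNA (miRNA) is a short RNA cut from a hairpin precursor. Either arm of the hairpin can give a mature miRNA, named 5p or 3p, and the precursor often lies in an intron of another gene or in a cluster with other hairpins. Bases 2 to 8 of the mature strand, the seed, pair with target messenger RNAs and lower their translation or stability, so miRNAs that share a seed share many targets. DRG hold large and small sensory neurons, satellite glia, Schwann cells, vessels and resident leukocytes, and all of them contribute miRNAs to a bulk library.

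The deposited files list 1123 mature miRNAs, of which 609 reached 5 CPM (reads scaled to a common library total) in at least 3 of the 8 libraries and were tested. Naive libraries held 4007706 to 15642360 reads, and 1 read was worth 0.0724 to 0.253 CPM. C57BL/6 naive libraries 4 and 5 stood apart. Their rank correlation with the CAST/Ei libraries was 0.880 to 0.904, against 0.907 to 0.938 for C57BL/6 libraries 1 to 3, and their 10 most abundant miRNAs took 56.6% and 50.1% of the scaled total, against 40.5% to 45.9% in the other naive libraries. miR-218-5p, known from motor neurons, was at 260520 and 81351 CPM in these libraries. It was at 3986 to 5846 CPM in C57BL/6 libraries 1 to 3 and at 17984, 3479 and 11409 CPM in CAST/Ei. miR-367-3p, a member of a cluster known from embryonic stem cells, was at 48100 and 13814 CPM there. It was at 316 to 466 CPM in C57BL/6 libraries 1 to 3 and at 2993, 398 and 1365 CPM in CAST/Ei. The strain test was therefore run with C57BL/6 libraries 4 and 5 and without them. CAST/Ei libraries 1 and 3 also lay above C57BL/6 libraries 1 to 3 for both miRNAs. Leaving out libraries 4 and 5 therefore does not make the remaining libraries alike in them. Defining miRNAs of the tissue were present in all 8: the summed level of the miR-183 cluster, which marks sensory cells, was 16825 to 35423 CPM, and that of the neuronal list was 119841 to 151119 CPM.

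Mature sequences of some of the miRNAs that differed between the strains are shown first. A level below detection in 1 strain can only be read with the sequence that was looked for, and seeds group these miRNAs. They are from RefSeq on GRCm38.p6, a C57BL/6 genome, where 504 of the 609 tested miRNAs have an entry. The bases run from 5′ to 3′ and capitals mark the seed. The first set was lower in CAST/Ei, and no pair of these shares a seed. It leaves out miR-3061-5p, miR-7044-3p and miR-6240, which were lower too. Called miRNAs without an entry, such as miR-467c-5p and miR-669e-5p, are not printed.
miR-341-3p: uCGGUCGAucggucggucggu
miR-1188-5p: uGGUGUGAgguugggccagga
miR-3060-3p: cCAUAGCAcagaagcacuccca
miR-8114: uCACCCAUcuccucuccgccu
miR-7688-5p: uAGCUGGGcaugaucugaugagc
miR-3095-3p: uGGACACUggagagagagcuuuu
miR-1982-3p: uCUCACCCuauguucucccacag
The second set was higher in CAST/Ei, and relatives of miR-211-5p and miR-190b-5p with the same seed are set beside them. miR-204-5p and miR-211-5p differ by 1 base, A17U when read from miR-204-5p and counted from its 5′ end, outside the seed. miR-190a-5p and miR-190b-5p differ at 7 of 22 positions, all outside the seed.
miR-211-5p: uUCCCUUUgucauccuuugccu
miR-204-5p: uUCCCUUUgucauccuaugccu
miR-190b-5p: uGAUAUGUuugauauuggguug
miR-190a-5p: uGAUAUGUuugauauauuaggu
miR-547-3p: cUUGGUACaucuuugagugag
miR-201-5p: uACUCAGUaaggcauuguucuu
miR-201-3p: uGAACAGUgccuuucuguguagg
miR-376b-5p: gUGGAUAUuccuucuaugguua

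The strains differed in a small set of miRNAs, most of them scarce. Over the 8 libraries 20 of 609 miRNAs (3.28%) passed the limma test at an adjusted p of 0.05 (called below, with adjusted p from limma unless another tool is named), 7 higher in CAST/Ei (1.15%) and 13 lower (2.13%). At an unadjusted p under 0.05 there were 123 (20.2%). The values of the strains did not overlap for any of the 20, which was so for 98 of all miRNAs tested (16.1%). A miRNA could meet the filter of 5 CPM in 3 libraries through 1 strain alone. Most of the 20 did, in both directions, so the filter itself favours a difference in them. Among the lower ones these were miR-341-3p, miR-1188-5p, miR-3060-3p, miR-467c-5p, miR-8114, miR-7688-5p, miR-3095-3p, miR-7044-3p, miR-1982-3p and miR-3061-5p. All of them were under 5 CPM in every CAST/Ei library. Among the higher ones they were miR-669e-5p, miR-190b-5p and both miR-201 arms, under 5 CPM in every C57BL/6 library. The median log2 difference over all 609 was 0.12. Of the 20, 14 had a mean under 50 CPM in both strains, 9 of those lower and 5 higher, against 39.7% of all miRNAs tested. None of the 100 most abundant miRNAs passed, with or without C57BL/6 libraries 4 and 5. Their median absolute log2 difference was 0.36, and that of all 609 was 0.50. The most abundant, the neuronal miR-138-5p, was at 73154 to 113664 CPM in C57BL/6 and 83337 to 93328 CPM in CAST/Ei, with overlapping values. Without libraries 4 and 5, 27 of the 609 passed (4.43%), 11 higher (1.81%) and 16 lower (2.63%), and 19 of the 20 were among them. Counting models on the whole reads called 25 miRNAs with edgeR (4.11%) and 57 with DESeq2 (9.36%) over the 8 libraries, among them 19 and 20 of the 20.

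**Figure D1:**
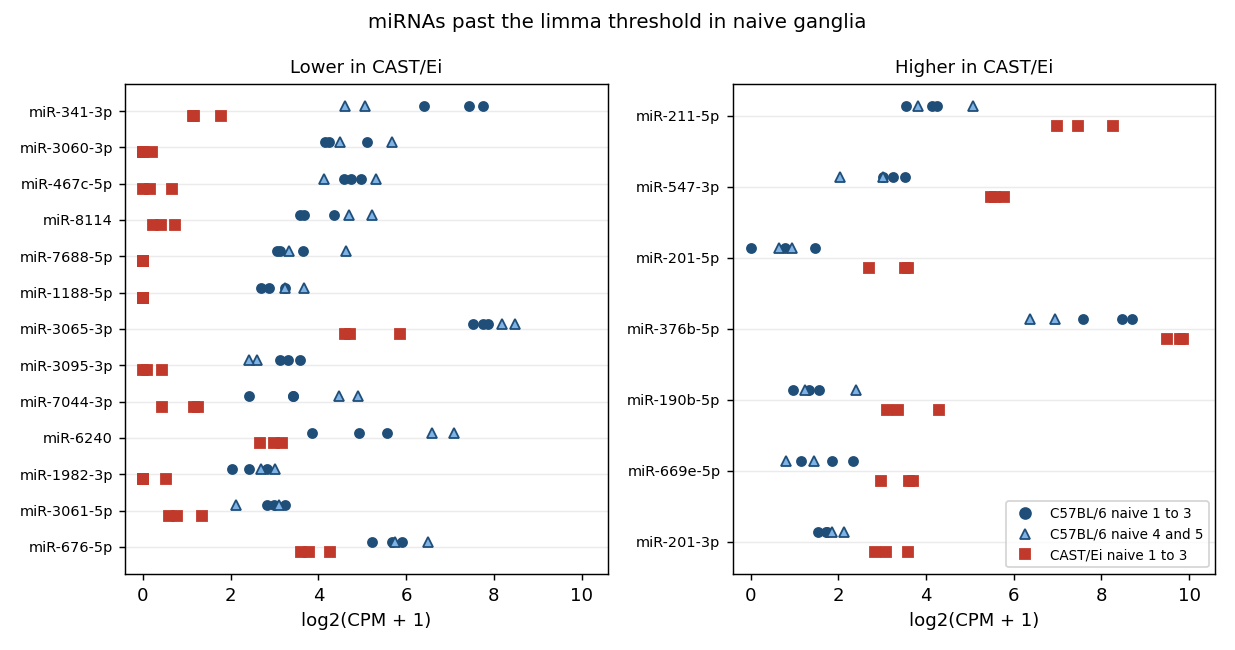
Level of the 20 miRNAs past the limma threshold in each of the 8 naive libraries, as log2(CPM + 1) on the horizontal axis, with 1 row a miRNA. Circles and triangles are C57BL/6 libraries, squares are CAST/Ei libraries; in every row the strains do not overlap, and for 9 of the 13 miRNAs on the left the CAST/Ei mean is below 1 CPM.

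On the log2(CPM + 1) scale the largest decrease was in the imprinted Dlk1-Dio3 domain of chromosome 12, where the maternal RNA Rian holds many small RNAs. miR-341-3p was at 172, 216, 83.6, 32.5 and 23.3 CPM in C57BL/6 libraries 1 to 5 and at 1.23, 2.45 and 1.20 CPM in CAST/Ei. All CAST/Ei values lay far below the lowest C57BL/6 one, which came from library 5. The log2 difference was -4.89 ± 0.68 (SE, adjusted p 0.000987), and -5.84 without libraries 4 and 5. In pooled reads the fold was 77.1 for miR-341-3p, and it was larger for some scarcer miRNAs described further on. Its hairpin lies at chr12:109611500-109611595 (GRCm38.p6, plus strand), in an intron of Rian. The next hairpin, 227 bases away at chr12:109611822-109611941 and also in an intron of Rian, gives miR-1188-5p. That miRNA was at 5.48, 8.42, 6.33, 8.50 and 11.7 CPM in C57BL/6, and no read of it was counted in any CAST/Ei naive library. Pooled over libraries it was at least 77.4-fold lower in CAST/Ei, taking 3 reads over the group (0.105 CPM) as the floor. Intervals and floors cover counting error only. The fitted log2 difference was -3.14 ± 0.34 (SE, adjusted p 0.000247), and -2.94 without libraries 4 and 5. Both arms of miR-370, the next tested hairpin, 6317 bases from miR-1188, were not called by limma: miR-370-3p was at 13.4 to 49.96 CPM in C57BL/6 and 6.52 to 10.7 CPM in CAST/Ei (adjusted p 0.157 with limma, 0.102 with edgeR and 0.0182 with DESeq2).

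Over the whole Dlk1-Dio3 list, 89 members were tested, 2 were lower and 1 was higher, a share close to the 3.28% of all miRNAs tested. The median log2 difference was 0.17, next to 0.12 for all miRNAs, and 0.15 without libraries 4 and 5. The third called member, miR-376b-5p, from a hairpin at chr12:109723458-109723539, was higher in CAST/Ei. It was at 189, 355, 414, 81.7 and 123 CPM in C57BL/6 and at 721, 927 and 888 CPM in CAST/Ei, a log2 difference of 2.10 ± 0.51 (SE, adjusted p 0.0479). Without libraries 4 and 5, the lowest C57BL/6 ones, the difference was 1.47 (adjusted p 0.0263). This call was lost in 11 of 23 alternative settings: with edgeR (adjusted p 0.0816), without C57BL/6 library 1, 4 or 5 or any 1 of the CAST/Ei libraries, with plain CPM or other scalings, and with a filter of 50 CPM. Its seed is shared by miR-376c-5p of the same cluster, which was at 1.88 to 18.6 CPM in C57BL/6 and 14.6 to 17.5 CPM in CAST/Ei and was not called.

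Several miRNAs read in every C57BL/6 library were nearly or wholly without reads in CAST/Ei. They passed the filter through C57BL/6 alone. miR-3060-3p was at 33.3, 18.1, 16.7, 21.4 and 50.6 CPM in C57BL/6, and CAST/Ei library 1 held 2 reads of it and the other two none. Its log2 difference was -4.67 ± 0.41 (SE, adjusted p 4.41e-05) and -4.43 without C57BL/6 libraries 4 and 5, and pooled CPM were 375-fold apart (95% counting interval 104 to 3105). Its hairpin, at chr11:4139364-4139446, is in an intron of Rnf215, a gene for a RING finger protein. miR-7688-5p, from a hairpin at chr10:93433107-93433162 outside any annotated gene, was at 11.5, 7.78, 7.35, 23.9 and 9.03 CPM in C57BL/6 and without a read in CAST/Ei, at least 118-fold lower (84.5-fold against C57BL/6 libraries 1 to 3 alone). Its log2 difference was -3.56 ± 0.41 (SE, adjusted p 0.000264), and -3.28 without libraries 4 and 5. miR-7688-5p and miR-1188-5p were the only miRNAs of the 1123 with at least 1 CPM in all 5 C57BL/6 libraries and 0 reads in all 3 CAST/Ei ones, and none showed the opposite pattern. miR-3095-3p, from an intron of the lysophosphatidic acid receptor gene Lpar1 (chr4:58441012-58441098, minus strand), was at 4.33 to 10.9 CPM in C57BL/6 and 0 to 0.344 CPM in CAST/Ei. Its log2 difference was -2.82 ± 0.37 (SE, adjusted p 0.000724), on 275 reads against 3, and -3.15 without libraries 4 and 5.

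Of the 10 lower miRNAs that have a RefSeq position, 4 have a hairpin that overlaps an annotated exon of a protein-coding gene on the same strand. Host genes were looked up for called miRNAs only. The share over all miRNAs tested is therefore not known, and the 4 are a description. Any overlap with an exon of any transcript counted, and whether the whole hairpin is exonic was not examined. A fragment of the host transcript and a processed miRNA were not separated in these counts. miR-8114, whose hairpin overlaps an exon of the glutamine synthetase gene Glul (chr1:153899926-153900036), was at 10.96, 11.7, 19.5, 36.1 and 24.8 CPM in C57BL/6 and at 0.652, 0.334 and 0.172 CPM in CAST/Ei. This gave a log2 difference of -3.84 ± 0.43 (SE, adjusted p 0.000258), or -3.41 without libraries 4 and 5. The hairpin of miR-1982-3p overlaps an exon of the antizyme gene Oaz1 (chr10:80828797-80828870). miR-1982-3p was at 3.08 to 7.12 CPM against 0 to 0.445 CPM, a log2 difference of -2.42 (adjusted p 0.00131), or -2.25 without libraries 4 and 5. The hairpin of miR-3061-5p overlaps an exon of Ppp2ca, which encodes the catalytic subunit of protein phosphatase 2A (chr11:52126746-52126836). miR-3061-5p was at 3.33 to 8.51 CPM against 0.516 to 1.56 CPM, a log2 difference of -1.94 (adjusted p 0.0111), or -2.11 without libraries 4 and 5. Its other arm, too scarce to be tested, was at 2.27 to 12.4 CPM in C57BL/6 and 0.217 to 1.03 CPM in CAST/Ei, also without overlap. The hairpin of miR-7044-3p overlaps an exon of Rasgef1a, which encodes an exchange factor for Ras-family proteins (chr6:118085192-118085263). miR-7044-3p was at 9.73, 9.64, 4.31, 21.0 and 29.2 CPM in C57BL/6 and at 1.38, 1.22 and 0.344 CPM in CAST/Ei, highest in libraries 4 and 5. Its log2 difference was -2.78 (adjusted p 0.0111), and -2.14 (adjusted p 0.0150) without them. The calls of miR-3061-5p and miR-7044-3p did not hold when certain CAST/Ei libraries were left out, 1 or 3 for the first and 2 or 3 for the second.

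The Sfmbt2 cluster, a long run of similar hairpins in an intron of Sfmbt2 on chromosome 2, held 1 called member in each direction among 42 tested, a share close to the 3.28% of all miRNAs. miR-467c-5p was at 30.3, 23.2, 25.8, 38.6 and 16.6 CPM in C57BL/6 and at 0.579, 0.111 and 0 CPM in CAST/Ei, a log2 difference of -4.48 ± 0.37 (SE, adjusted p 4.38e-05), or -4.50 without libraries 4 and 5. miR-669e-5p was at 1.23, 2.59, 4.05, 1.72 and 0.752 CPM in C57BL/6 and at 12.1, 11.2 and 6.88 CPM in CAST/Ei, a log2 difference of 1.91 ± 0.41 (SE, adjusted p 0.0234). It was under 5 CPM in every C57BL/6 library and so passed the filter through CAST/Ei alone. Without libraries 4 and 5 miR-669e-5p missed the threshold (1.65, adjusted p 0.0509), as it also did without C57BL/6 library 1, without CAST/Ei library 1 or 2, and with the replicate number as a block. miR-467d-5p passed only without those libraries (1.85, adjusted p 0.0124). It was at 15.5, 18.1 and 24.3 CPM in C57BL/6 libraries 1 to 3, 39.2 and 68.8 CPM in libraries 4 and 5, and 103, 79.6 and 43.3 CPM in CAST/Ei. That call of miR-467d-5p was lost in 4 of 19 alternative settings, without C57BL/6 library 1 or 2 or CAST/Ei library 1 and with the block. Members of the cluster are near copies of one another, and reads of one can be counted under another where a base differs, so their separate levels are uncertain. The median log2 difference over the list was 0.28, and 0.17 without libraries 4 and 5. The summed level of the list overlapped between the strains, at 1224 to 1619 CPM in C57BL/6 and 1036 to 2076 CPM in CAST/Ei.

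miR-3065-3p and miR-676-5p were lower in CAST/Ei while the opposite arm of the same hairpin was not called. miR-3065-3p was at 215, 233, 183, 289 and 357 CPM in C57BL/6 and at 25.2, 23.4 and 56.9 CPM in CAST/Ei. That is a log2 difference of -2.91 ± 0.39 (SE, adjusted p 0.000724), or -2.66 without libraries 4 and 5. miR-3065-5p was at 809 to 2707 CPM in C57BL/6 and 2426 to 3007 CPM in CAST/Ei, a log2 difference of 0.87 with an adjusted p of 0.270. On the log2(CPM + 1) scale the 3p arm minus the 5p arm was -2.56 ± 0.999 (SD, n = 5) in C57BL/6 and -6.34 ± 0.73 (SD, n = 3) in CAST/Ei, without overlap. Mir3065 is transcribed from the strand opposite to Mir338, the hairpin of the glial miRNA miR-338. A run of 21 of the 22 bases of miR-3065-5p is the exact complement of miR-338-3p. Whether the authors counted by strand is not given in the sources used here, and without strand, reads of such partners cannot be told apart. Both arms of miR-338 were not called: miR-338-3p was at 6735 to 33986 CPM in C57BL/6 and 34794 to 39788 CPM in CAST/Ei (adjusted p 0.234), and miR-338-5p at 921 to 3157 CPM and 2250 to 3036 CPM (adjusted p 0.504).

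miR-676-5p was at 50.01, 36.2, 59.0, 52.6 and 89.2 CPM in C57BL/6 and at 12.8, 11.1 and 18.2 CPM in CAST/Ei, a log2 difference of -1.92 ± 0.37 (SE, adjusted p 0.0111), or -1.72 (adjusted p 0.0101) without libraries 4 and 5. The call was lost without CAST/Ei library 1 or 2. miR-676-3p was at 68.7 to 177 CPM and at 56.3 to 80.8 CPM, a log2 difference of -0.71 (adjusted p 0.303), and its values overlapped. In injured ganglia miR-676-3p was lower too (-0.83, adjusted p 0.00363). The arms of miR-376b showed the opposite balance. miR-376b-3p was at 526 to 861 CPM in C57BL/6 and 796 to 1137 CPM in CAST/Ei and was not called (adjusted p 0.406), and the 5p arm minus the 3p arm was -1.74 ± 0.88 (SD, n = 5) in C57BL/6 and -0.12 ± 0.30 (SD, n = 3) in CAST/Ei. These hairpins were chosen because 1 arm had been called, so the balance of their arms is a description without a test.

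**Figure D2:**
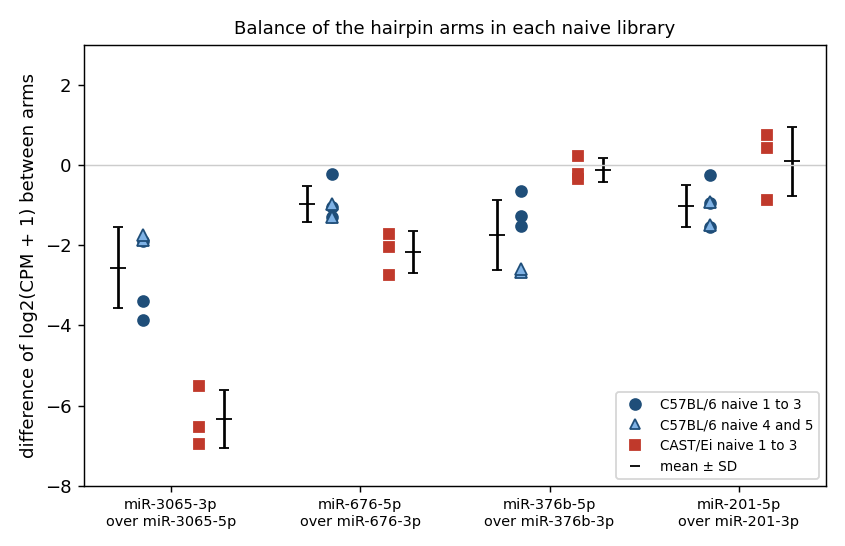
Difference of log2(CPM + 1) between the arms of 4 hairpins in each naive library on the vertical axis, with mean and SD beside the points. For miR-3065 the CAST/Ei squares lie between -6.95 and -5.52 and the C57BL/6 points between -3.88 and -1.75; for miR-201 the strains overlap.

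miR-6240 had the least stable call among the lower miRNAs. It was at 13.6, 29.2, 46.6, 94.9 and 136 CPM in C57BL/6 and at 5.36, 8.01 and 6.88 CPM in CAST/Ei, and again libraries 4 and 5 were highest. It had a log2 difference of -2.67 ± 0.64 (SE, adjusted p 0.0472). The call was lost without C57BL/6 library 3, 4 or 5 or any 1 of the CAST/Ei libraries. Without both C57BL/6 libraries 4 and 5 it was kept, at -1.85 with an adjusted p of 0.0353. In injured ganglia the sign was opposite (1.55, adjusted p 0.403), with CAST/Ei injured library 2 at 251 CPM and the other 5 injured libraries at 5.19 to 8.56 CPM.

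On the log2(CPM + 1) scale the largest increase was in miR-211-5p; edgeR fitted 3.35 for it and 3.42 for miR-201-5p. Its hairpin, at chr7:64205806-64205911, lies in an intron of Trpm1, a cation channel gene known from pigment cells and retinal bipolar cells, and the miRNA itself is known from melanocytes. miR-211-5p was at 10.7, 16.5, 18.0, 32.4 and 13.2 CPM in C57BL/6 and at 176, 127 and 308 CPM in CAST/Ei. The means were 18.2 ± 8.455 (SD, n = 5) and 204 ± 94.0 (SD, n = 3), and the lowest CAST/Ei value was above the highest C57BL/6 value. The log2 difference was 3.42 ± 0.43 (SE, adjusted p 0.000564), and 3.60 without libraries 4 and 5. Its relative with the same seed, miR-204-5p, was far more abundant, at 9574, 5879, 5559, 7292 and 1503 CPM in C57BL/6 and 9059, 5331 and 11625 CPM in CAST/Ei. The values of miR-204-5p overlapped and it was not called (log2 difference 0.70, adjusted p 0.504). Because these miRNAs differ by a single base, a sequencing or alignment error can move reads between them, and miR-211-5p is the scarcer one. miR-211-3p was read at no more than 0.115 CPM in C57BL/6 and at 0.445 to 0.869 CPM in CAST/Ei.

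A group of neighbours on the X chromosome were higher in CAST/Ei. They belong to a fast-evolving cluster known for expression in testis. miR-547-3p was at 8.49, 7.05, 10.4, 3.10 and 7.15 CPM in C57BL/6 and at 43.8, 46.3 and 54.0 CPM in CAST/Ei. On the log2 scale the difference was 2.64 ± 0.39 (SE, adjusted p 0.00131), and 2.35 without libraries 4 and 5. The hairpin of miR-201, at chrX:67988096-67988161 on the minus strand, is 213 bases from that of miR-547 at chrX:67988374-67988451. miR-201-5p was at 0, 0.729, 1.77, 0.919 and 0.564 CPM in C57BL/6 and at 5.50, 10.5 and 11.004 CPM in CAST/Ei, a log2 difference of 2.50 ± 0.41 (SE, adjusted p 0.00305), or 2.51 without libraries 4 and 5. miR-201-3p was at 1.92 to 3.39 CPM and at 6.19 to 11.01 CPM, a log2 difference of 1.38 ± 0.34 (SE, adjusted p 0.0492), or 1.51 (adjusted p 0.0425) without them. The call of miR-201-3p was lost in 13 of 22 alternative settings, among them each setting that left out a CAST/Ei library or 1 of C57BL/6 libraries 1 to 4. These were all 3 tested members of the 11 listed, and the other listed members were too scarce to be tested. Both miR-201 arms were under 5 CPM in every C57BL/6 library and passed the filter through CAST/Ei alone. That all tested members were higher is thus no separate support. The sex of the naive animals is not recorded, so the strains could not be matched on it.

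miR-190b-5p was the last miRNA called higher. It was at 0.959, 1.94, 1.52, 1.38 and 4.33 CPM in C57BL/6 and at 7.68, 9.23 and 18.6 CPM in CAST/Ei, a log2 difference of 2.08 ± 0.43 (SE, adjusted p 0.0166), or 2.30 without libraries 4 and 5. Without CAST/Ei library 2 or 3 the call was lost. All C57BL/6 values were under 5 CPM, so miR-190b-5p passed the filter through CAST/Ei alone. miR-190a-5p, with the same seed and a far higher level, was at 231 to 713 CPM in C57BL/6 and 651 to 744 CPM in CAST/Ei, overlapping, and was not called (adjusted p 0.290).

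When C57BL/6 libraries 4 and 5 were left out, 8 further miRNAs passed, 5 of them higher in CAST/Ei. The hairpins of miR-200b, miR-200a and miR-429, known for keeping the epithelial state of cells, form 1 cluster on chromosome 4 between 156053905 and 156055750 (GRCm38.p6), inside Ttll10. miR-200b-3p was at 10.7, 5.35 and 4.31 CPM in C57BL/6 libraries 1 to 3, at 372 and 58.1 CPM in libraries 4 and 5, and at 42.5, 43.7 and 29.9 CPM in CAST/Ei. CAST/Ei thus lay above the first 3 libraries and below the other two. On the log2 scale the difference was 2.42 ± 0.38 (SE, adjusted p 0.00257) without libraries 4 and 5 and 0.68 (adjusted p 0.765) with them. miR-200a-3p was at 5.75, 11.7 and 8.61 CPM, then 576 and 115 CPM, and at 53.6, 35.1 and 37.1 CPM in CAST/Ei. Its log2 difference was 2.17 (adjusted p 0.00336) and, with libraries 4 and 5, 0.26 (adjusted p 0.922). miR-429-3p was at 4.80, 7.21 and 8.36 CPM, then 82.0 and 13.0 CPM, and at 37.7, 29.8 and 37.1 CPM in CAST/Ei, with log2 differences of 2.22 (adjusted p 0.00179) and 1.36 (adjusted p 0.308).

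Related miRNAs from another cluster were not called by limma. miR-200c-3p, with the seed of miR-200b-3p and miR-429-3p, was at 5.07, 4.86 and 9.37 CPM in C57BL/6 libraries 1 to 3, 22.2 and 22.0 CPM in libraries 4 and 5, and 2.75, 3.89 and 5.50 CPM in CAST/Ei. miR-141-3p, with the seed of miR-200a-3p, was at 2.06, 6.32 and 4.05 CPM, then 437 and 83.5 CPM, and at 20.4, 4.003 and 11.7 CPM in CAST/Ei. Their adjusted p without libraries 4 and 5 were 0.472 and 0.256. Over the 8 libraries DESeq2 called miR-200c-3p lower (adjusted p 0.0358), and edgeR did not (0.161). The following sequences show the shared seeds of this group and of the miR-34 group that follows.
miR-200b-3p: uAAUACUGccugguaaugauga
miR-429-3p: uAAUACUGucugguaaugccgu
miR-200a-3p: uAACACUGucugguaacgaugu
miR-449a-5p: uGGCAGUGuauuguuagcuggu
miR-449c-5p: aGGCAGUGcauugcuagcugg
miR-34a-5p: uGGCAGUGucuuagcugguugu

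miR-449a-5p, from an intron of Cdc20b on chromosome 13 and known from multiciliated cells, was at 38.1, 31.0, 23.6, 31.1 and 3.20 CPM in C57BL/6 and at 154, 99.2 and 92.0 CPM in CAST/Ei. The strains did not overlap, library 5 being lowest. It had a log2 difference of 2.42 over the 8 libraries. There it missed the threshold with limma (adjusted p 0.0699) and edgeR (0.0917) and passed with DESeq2 (0.00900). Without libraries 4 and 5 the difference was 1.85 ± 0.33 (SE, adjusted p 0.00604). miR-449c-5p, also with this seed, was at 1.37 to 5.27 CPM in C57BL/6 and at 17.7, 10.7 and 4.64 CPM in CAST/Ei and was not called in either fit. miR-34a-5p, a p53-responsive member of the seed group, was at 7872 to 16905 CPM and at 11256 to 21240 CPM, also not called. miR-34b-5p, with this seed too, was at 32.5 to 93.4 CPM and at 64.4 to 83.3 CPM and was not called (adjusted p 0.793).

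Called lower by limma only without libraries 4 and 5 were miR-709 and both arms of miR-483. The hairpin of miR-483 lies in an intron of the imprinted growth factor gene Igf2. miR-483-3p was at 16.3, 17.4, 21.8, 21.5 and 77.1 CPM in C57BL/6 and at 6.59, 7.78 and 3.27 CPM in CAST/Ei, with a log2 difference of -1.56 (adjusted p 0.0370). miR-483-5p was at 9.45, 6.16, 6.59, 14.2 and 2.26 CPM and at 1.67, 2.002 and 1.72 CPM, with a log2 difference of -1.57 (adjusted p 0.0349). miR-709 was at 24.8, 23.1, 51.4, 30.1 and 15.05 CPM in C57BL/6 and at 4.78, 5.78 and 14.8 CPM in CAST/Ei, a log2 difference of -1.91 (adjusted p 0.0370). The values of both miR-483 arms and of miR-709 did not overlap between strains in any of the 8 libraries. The 3 limma calls without libraries 4 and 5 were lost in 5 to 7 of 19 alternative settings each, mostly when 1 further library was left out.

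**Figure D3:**
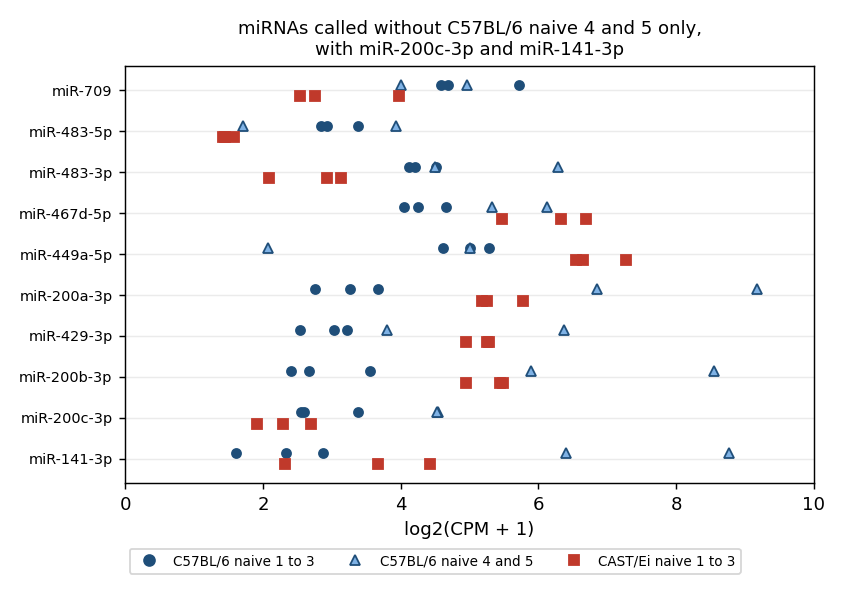
Level of the 8 miRNAs called only without C57BL/6 libraries 4 and 5, and of miR-200c-3p and miR-141-3p, as log2(CPM + 1) on the horizontal axis, with 1 point a naive library. The triangles (libraries 4 and 5) of miR-200a-3p and miR-200b-3p lie above the CAST/Ei squares and the circles (libraries 1 to 3) below them.

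**Figure D4:**
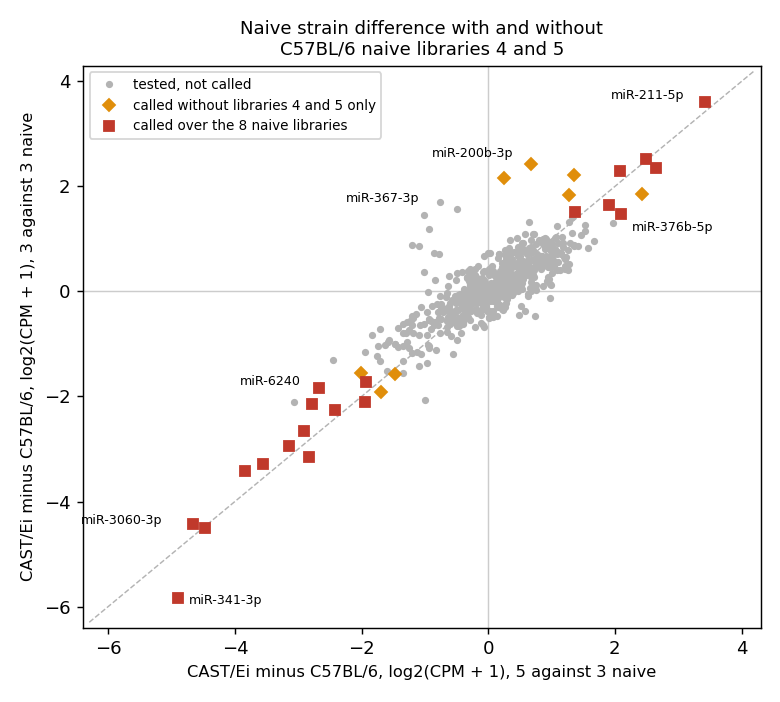
Log2 difference between the strains for the 609 miRNAs over all 8 naive libraries (horizontal) and without C57BL/6 libraries 4 and 5 (vertical), with the line of equal values dashed. The squares, called over the 8 libraries, all lie within 1 unit of the line, and the diamonds of miR-200a-3p and miR-200b-3p lie well above it. Both axes share the other 6 libraries.

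The injured ganglia gave a second, separate set of libraries for the strain contrast. There 99 of the same 609 miRNAs passed (16.3%), 35 higher in CAST/Ei (5.75%) and 64 lower (10.5%). When totals left out the 3 most abundant miRNAs, the split was 42 higher and 38 lower. Of the 20 miRNAs called in naive ganglia, 19 had the same sign in injured ganglia and 17 passed there with that sign, 12 of the 13 lower and 5 of the 7 higher. Of the 589 not called, 61 passed with the same sign (10.4%). miR-341-3p was at 157, 192 and 201 CPM in C57BL/6 injured libraries and at 2.19, 2.73 and 1.41 CPM in CAST/Ei, a log2 difference of -5.90 (adjusted p 1.17e-07). miR-1188-5p, without reads in naive CAST/Ei ganglia, was read there at 2.01, 0.964 and 1.41 CPM, against 12.9 to 23.2 CPM in C57BL/6. miR-7688-5p had no read in the injured CAST/Ei libraries and was at 11.7 to 14.2 CPM in C57BL/6. miR-211-5p was at 4.88, 10.9 and 22.8 CPM in C57BL/6 and at 85.3, 92.2 and 151 CPM in CAST/Ei, a log2 difference of 3.17 (adjusted p 0.00102). For miR-3065-3p the log2 difference there was -3.49 (adjusted p 1.03e-06).

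The called miRNAs that did not pass in injured ganglia were miR-6240, miR-376b-5p and miR-190b-5p. miR-376b-5p was at 375, 438 and 807 CPM in injured C57BL/6 and at 537, 686 and 651 CPM in CAST/Ei, overlapping (log2 difference 0.29, adjusted p 0.488). miR-190b-5p was at 1.59 to 4.83 CPM against 4.82 to 7.94 CPM (log2 difference 0.98, adjusted p 0.0879). A test of the difference between the naive and the injured strain effect found no miRNA past the threshold with limma (0 of 609, or 0%, and 47 at an unadjusted p under 0.05), also without libraries 4 and 5. For these 3 miRNAs its adjusted p was 0.534. Injured animals differ from naive ones in the crush and possibly in age and sex, which cannot be told apart here. The cluster neighbours miR-200a-3p and miR-200b-3p, called in naive ganglia only without libraries 4 and 5, were not called in injured ganglia (adjusted p 0.411 and 0.454), whereas miR-429-3p (log2 difference 1.23, adjusted p 0.00578) and miR-449a-5p (1.73, adjusted p 0.000647) were higher there too.

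**Figure D5:**
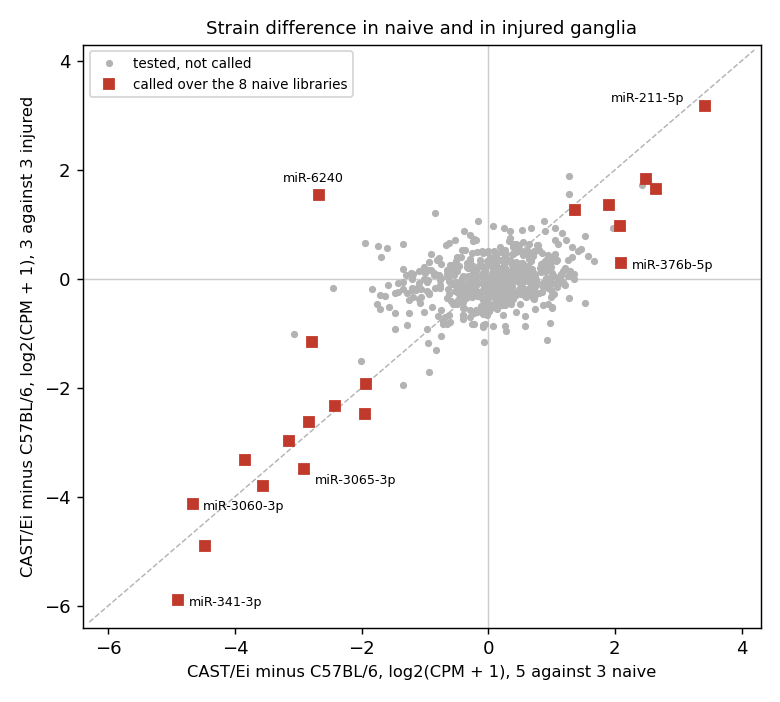
Log2 difference between the strains (CAST/Ei minus C57BL/6) in the 8 naive libraries (horizontal) and in the 6 injured libraries (vertical) for the 609 miRNAs, with no library in common. Of the 20 squares called in naive ganglia, 19 share the sign on both axes, and miR-6240 lies at -2.67 and 1.55.

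Of the lists for cell types of the ganglion, limma called no member with or without libraries 4 and 5, beyond the epithelial miRNAs above. Counting models on the recovered reads called some, and not all of these are given below. In a bulk library fewer cells of a type and less RNA per cell cannot be told apart. Of 19 neuronal miRNAs tested 12 had a log2 difference above 0 (56% of all miRNAs tested did), with a median of 0.22, and 13 with a median of 0.34 without libraries 4 and 5. miR-9-3p had a log2 difference of 1.0001 (adjusted p 0.206) with 900 to 2796 CPM in C57BL/6 and 3329 to 4737 CPM in CAST/Ei. miR-7b-5p, another neuronal miRNA, was at 108 to 308 CPM in C57BL/6 and 86.0 to 99.5 CPM in CAST/Ei, a log2 difference of -1.01 (adjusted p 0.198 with limma and 0.0440 with DESeq2), and was lower in injured ganglia (-0.61, adjusted p 0.0305). In injured ganglia 3 neuronal members were lower and 0 higher, with a list median of 0.06. Of all miRNAs tested 10.5% were lower and 5.75% higher there. The 6 tested miRNAs of the miR-183 cluster had a median of 0.23, and 0.35 without libraries 4 and 5. The myelinating glia list, led by miR-338-3p, summed to 18227, 35836, 34722, 8631 and 8050 CPM in C57BL/6 libraries 1 to 5 and to 37066 to 42881 CPM in CAST/Ei. That sum did not overlap between strains and was lowest in libraries 4 and 5. The median log2 difference of its 4 tested members was 0.81, 0.34 without those libraries, and -0.28 in injured ganglia, where miR-338-5p was lower (-0.47, adjusted p 0.0284). The endothelial list summed to 14920 to 19889 CPM in C57BL/6 and 22473 to 34319 CPM in CAST/Ei, also without overlap. Its members miR-126a-5p and miR-126b-3p were nearly equal in each library. They were at 4569 and 4490 CPM in C57BL/6 library 1, and at 5762 and 5757 CPM in CAST/Ei library 3. Whether the same reads were counted under both names, and so entered the sum more than once, was not tested. The leading member of the list, miR-126a-3p, was at 7701 to 13776 CPM and 13406 to 21107 CPM, with overlap at the margin (log2 difference 0.59, adjusted p 0.299). The part of such cell type sums in the strain differences was not tested.

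Leukocyte miRNAs had a median log2 difference of -0.39 with 3 of 10 above 0, and of -0.06 with 5 of 10 above 0 without libraries 4 and 5. miR-150-5p, the lymphocyte miRNA, was at 417, 1658, 170, 2713 and 2382 CPM in C57BL/6 and at 180, 82.0 and 96.6 CPM in CAST/Ei. The log2 difference was -3.06 ± 0.82 (SE), which missed limma's threshold (adjusted p 0.0699), and C57BL/6 library 3 lay below CAST/Ei library 1. edgeR (adjusted p 0.0304) and DESeq2 (1.04e-06) called miR-150-5p lower, also without libraries 4 and 5 (0.0400 and 0.0428). miR-511-3p, from the macrophage mannose receptor gene Mrc1, was at 51.8 to 109 CPM in C57BL/6 and 35.7 to 47.5 CPM in CAST/Ei. It was not called by limma in naive ganglia (log2 difference -0.82, adjusted p 0.234), was lower by edgeR (adjusted p 0.0400) and DESeq2 (0.000980) without libraries 4 and 5, and was lower in injured ones (-1.31, adjusted p 0.000332). Among the 10, 2 were lower and 2 higher in injured ganglia, against 10.5% and 5.75% of all miRNAs tested. The higher ones were miR-146b-5p (0.89, adjusted p 0.000629) and miR-146a-5p (0.76, adjusted p 0.0176), known as brakes on innate immune signalling, with naive log2 differences of 0.53 and 0.35 that were not called. The 5 red blood cell miRNAs had a median of -0.11 with 2 above 0, and of -0.58 with 1 above 0 without libraries 4 and 5. In injured ganglia 3 of these 5 were lower, against 10.5% of all miRNAs tested. Among them miR-486-5p was at 40.8, 73.9, 21.8, 264 and 205 CPM in C57BL/6 and at 23.7 to 25.4 CPM in CAST/Ei, with overlap (adjusted p 0.230 with limma and 0.00367 with DESeq2), and miR-144-3p had a log2 difference of 0.93 (adjusted p 0.377). miR-486-3p was at 131 to 583 CPM in C57BL/6 and 94.9 to 107 CPM in CAST/Ei, without overlap. Its log2 difference was -1.28 (adjusted p 0.206 with limma, 0.114 with edgeR and 0.0200 with DESeq2).

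Some single miRNAs that limma did not call had groups that did not overlap, which was so for 16.1% of all miRNAs tested. miR-10b-5p, from the Hoxd cluster, was at 5614 to 8972 CPM in C57BL/6 and at 12735, 10446 and 16872 CPM in CAST/Ei (log2 difference 0.97, adjusted p 0.109). miR-10b-3p of the same hairpin was at 32.8 to 57.5 CPM and 72.7 to 127 CPM (1.01, adjusted p 0.148). miR-344b-3p was at 43.3 to 55.99 CPM in C57BL/6 and 84.0 to 107 CPM in CAST/Ei (0.97, adjusted p 0.113), and miR-92a-3p of the miR-17 paralogs at 303 to 647 CPM and 137 to 237 CPM (-1.26, adjusted p 0.106 with limma and 0.0128 with DESeq2). The lists these come from had medians of 0.61 for the Hox clusters, 0.62 for miR-344 and -0.03 for the miR-17 paralogs, and 0.41, 0.57 and 0.00 without libraries 4 and 5. The 21 tested let-7 miRNAs, which promote differentiation, had a median of -0.03 with 0 called by limma, and limma called 0 of the 20 miR-17 paralogs, which promote proliferation.

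The reference that the authors aligned to is not named in the sources used here. A base of CAST/Ei that differs from that reference in a mature miRNA can lower its count, and this and a lower level of the RNA cannot be told apart from these counts.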

How the data were processed

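Small RNA libraries of 8 naive DRG samples (C57BL/6, n = 5; CAST/Ei, n = 3) were compared, with 6 injured ones (n = 3 each) for the same contrast. Reads were aligned with Bowtie2, per the submitters' processing notes, which give no version; the reference and the counting steps are recorded nowhere in these sources. The deposited signal, named CPM by the authors, is counts divided by scaled library sizes: in all 14 libraries 100% of values are whole multiples of 1 read within 1e-06 reads, and the scaled totals differ between libraries. Plain CPM had been assumed, and the planned test was kept.

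Values were tested as log2(CPM + 1), which understates changes at a few CPM, with limma-trend (R 4.3.3, limma 3.58.1), two-sided, adjusted by Benjamini and Hochberg over the 609 miRNAs that reached 5 CPM in 3 or more of the 8 libraries; the threshold was 0.05. The function was tested on simulated data. Whole reads were tested with edgeR 4.0.16 and DESeq2 1.42.0. Other alternatives were pseudocounts, filters, scalings, weights, blocks and libraries left out. Floors are 3 reads. Positions and sequences are from RefSeq on GRCm38.p6, and host genes from GENCODE M21. Figures were drawn with matplotlib 3.10.9.

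The miRNAs eligible to be named were called ones with groups that do not overlap, their other arms and neighbours within 10000 bases, miRNAs sharing a seed, up to 4 tested members of each list, and the 10 most abundant. miR-218-5p and miR-367-3p were added, and miRNAs that share a seed were named after their values were seen. Members and lists, the latter from general knowledge, were chosen with earlier results of these data known.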

Additional observations from a re-analysis of the deposited data

Results flagged for a closer look

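Dixon's criterion was applied to the CPM of 67 sets of 5 C57BL/6 naive values. Each set belonged to 1 tested miRNA, and most of these are named above. In 9 sets the gap of a library to the nearest other was large for the range of the set. Chance flags about 1 in 20 only where values are normally distributed, which was not examined for these CPM. Some miRNAs, such as miR-367-3p, were named because of libraries 4 and 5. The 9 are therefore a description and are not set against that rate. Library 4 was the far one for miR-7688-5p at 23.9 CPM (others at most 11.5), miR-200b-3p at 372 CPM (at most 58.1), miR-429-3p at 82.0 CPM (at most 13.0), miR-200a-3p at 576 CPM (at most 115), miR-141-3p at 437 CPM (at most 83.5) and miR-367-3p at 48100 CPM (at most 13814). Library 5 was the far one for miR-483-3p at 77.1 CPM (others at most 21.8), miR-344d-3p at 60.9 CPM (at most 31.4) and miR-206-3p, a muscle miRNA, at 194 CPM (at most 88.4). Groups of 3 libraries were not examined.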

How the results depend on the processing

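Of the 20 calls, 12 passed in every alternative that could test them: miR-341-3p, miR-3060-3p, miR-467c-5p, miR-8114, miR-7688-5p, miR-1188-5p, miR-3065-3p, miR-3095-3p, miR-1982-3p, miR-211-5p, miR-547-3p and miR-201-5p. Leaving out 1 library gave 13 to 24 calls over the 8 naive libraries (lowest without CAST/Ei library 2), 16 to 35 without C57BL/6 libraries 4 and 5 (16 without CAST/Ei library 1 and 17 without library 3), and 39 to 84 in injured ganglia (52, 43 and 39 without CAST/Ei libraries 1, 2 and 3). For the naive fits with and without libraries 4 and 5, the counts of 20 and 27 became 3 and 4 with a filter of 50 CPM, which leaves out most called miRNAs, 57 and 53 with array weights, 57 and 46 with DESeq2, and 67 and 86 in a model of all 4 groups, where the cause was not tested. Without libraries 4 and 5, plain CPM moved the median of all miRNAs from 0.12 to -0.03.

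Uncalled values changed sign without C57BL/6 libraries 4 and 5, also with the filter applied again: miR-218-5p to 0.87, miR-367-3p to 1.70, miR-138-5p to 0.071 and miR-141-3p to 1.20. With array weights they were 0.29 for miR-218-5p, 1.03 for miR-367-3p and 0.54 for miR-141-3p. Leaving out C57BL/6 library 4 gave 0.39 for miR-367-3p and 0.16 for miR-141-3p, and leaving out CAST/Ei library 2 gave 0.02 for miR-367-3p; leaving out 1 library at a time gave -1.43 to 0.39 and -1.63 to 0.16 for these miRNAs, and the cause was not tested. miR-146a-5p had -0.037 with edgeR and -0.018 with DESeq2. The floor of 3 reads was 0.217 to 0.760 CPM in naive libraries.

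The labels number replicates 1 to 3 in both strains, but nothing says that a number pairs animals. Deviations of same-numbered libraries correlated at 0.31, 0.00 and 0.17, and C57BL/6 library 2 correlated best with CAST/Ei library 1. The fit with the replicate number as a block, on libraries 1 to 3, called 23 miRNAs, 92 in injured ganglia, and gave 0.87 for miR-218-5p, 1.70 for miR-367-3p, 0.071 for miR-138-5p and 1.20 for miR-141-3p.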
